A study of Mus musculus with 10 samples.

Results

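Cdh13, Esx1, Fmnl2 and Aebp1 were followed as markers of E0771 tumor cells, 4 of the 31053 genes measured. They were chosen by their UMI levels in tumor cells against other cells in earlier results of these data, so those levels are given here as a description and carry no test. E0771 is a mammary tumor line from C57BL/6 mice. It was grown in the fourth mammary fat pad of female mice, aged 16 weeks at injection, and tumors were taken at day 21. The WT group held 5 tumors in 5 libraries. The EC-AGO1-KO group, in which Cre driven by the VE-Cadherin (Cdh5) promoter deletes a floxed Ago1 gene in endothelial cells, held 7 tumors in 5 libraries, since tumors under 50 mm3 were pooled (libraries KO 2+3 and KO 5+6). Both groups received the same tumor cells, in which Ago1 was not targeted. Batch 1 held 1 library of each group and batch 2 held 4 of each, and the batches were sequenced on different instruments.

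The genes have unlike roles. Cdh13 encodes T-cadherin, a cadherin without a cytoplasmic tail that is held in the membrane by a lipid anchor and binds adiponectin, and it is known from endothelium and heart. Esx1 is an X-linked paired-like homeobox gene known from placenta and testis. Fmnl2 encodes a formin, a protein that elongates actin filaments at the leading edge of moving cells. Aebp1 encodes a carboxypeptidase-like protein without known enzyme activity that is secreted into collagen matrix and is known from fibroblasts and smooth muscle. Pvt1, a noncoding RNA gene next to Myc and one of the markers that named the tumor-like clusters, served as the reference: its level in another cell class, as a percent of its tumor level, was set beside that of each member as a gauge of tumor RNA in the class. The gauge assumes that the other cells have no Pvt1 of their own, which was not tested. As Pvt1 helped to name the tumor-like clusters, genes less confined to them can lie above its percent. The share of all genes that do so was not counted.

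On GRCm38 (mm10), Cdh13 lies at chr8:118283733-119324921 on the plus strand and spans 1041 kb, of which 1.08% is exonic in GENCODE M21. Fmnl2 lies at chr2:52857860-53133804 on the plus strand, spans 276 kb and is 2.04% exonic. Esx1 at chrX:137115397-137122083 on the minus strand spans 6.69 kb and is 29.7% exonic, and Aebp1 at chr11:5861947-5872088 on the plus strand spans 10.1 kb and is 40.0% exonic. The members therefore comprise 2 long and 2 short genes.

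Of all barcodes, 65298 passed the limits of 200 to 7000 genes and at most 10% mitochondrial UMIs. Batch 1 libraries kept 968 and 1194 barcodes with median UMI counts of 3862 and 4049, and batch 2 libraries kept 6212 to 10190 with medians of 595 to 1142, while the UMI totals were alike (8323896 to 10591577 per library over both batches). Tumor-like clusters, named from 8 markers that include none of the members, held 55738 barcodes (85.4%), and each of the 11 clusters had 5 to 7 of these markers. There were 576 fibroblast-like, 277 pericyte-like, 198 endothelial-like, 2263 myeloid-like, 535 dendritic-like, 1358 T-like, 393 B-like and 143 epithelial-like barcodes, and 3817 stayed unnamed. Libraries shared at most 28 barcode sequences in any pair, at most 0.503% of the smaller library. Ago1 could not check the labels: endothelial-like barcodes held 0 Ago1 UMIs in WT, which allows up to 50.7 per 1000000 UMIs (CPM), and 0 in KO, which allows up to 37.5.

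Fmnl2 and Cdh13 were the most abundant members in tumor-like cells, Esx1 and Aebp1 the least. Levels are in CPM, the UMIs of a gene scaled to a total of 1000000 UMIs for the class in a library, with Actb left out of the total. Cdh13 reached 1203 in the WT library of batch 1 and 3331, 2418, 2722 and 2884 in WT 1, WT 3, WT 4 and WT 5. In KO it reached 1195 in batch 1 and 2223, 2017, 2860 and 2240 in KO 1, KO 2+3, KO 4 and KO 5+6. The 2 libraries of batch 1 lay below all 8 of batch 2, and WT and KO overlapped.

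Fmnl2 showed the same order of batches with a wider gap. Its level was 655 and 707 in the WT and KO libraries of batch 1, then 3175, 2997, 3069 and 2726 in WT 1, WT 3, WT 4 and WT 5, and 2617, 2648, 3479 and 2791 in KO 1, KO 2+3, KO 4 and KO 5+6. The mean of batch 2 was 2938 ± 298 (SD, n = 8) against 681 ± 36.6 (SD, n = 2) in batch 1. KO 4 was the highest of the 10 libraries.

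Aebp1 went the other way. It stood at 414 and 434 in batch 1, and at 189, 199, 161 and 153 in WT 1, WT 3, WT 4 and WT 5 and 184, 248, 140 and 164 in KO 1, KO 2+3, KO 4 and KO 5+6. Both libraries of batch 1 thus lay above all 8 of batch 2, whose mean was 180 ± 33.8 (SD, n = 8).

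Esx1 differed least between the batches. Its level was 268 and 273 in the WT and KO libraries of batch 1, 252, 277, 236 and 347 in WT 1, WT 3, WT 4 and WT 5, and 395, 344, 303 and 424 in KO 1, KO 2+3, KO 4 and KO 5+6. Batch 1 fell within the range of batch 2.

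**Figure D1:**
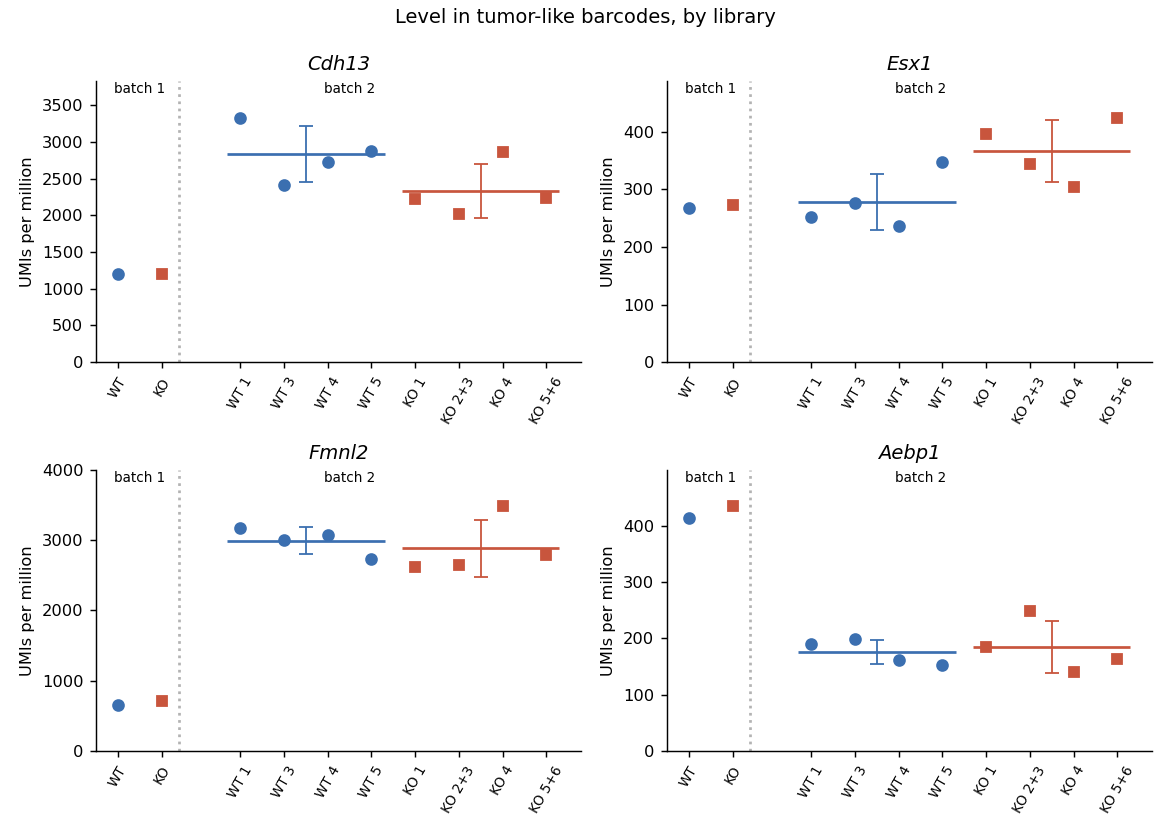
Level of each member in tumor-like barcodes (CPM, linear axis from 0), 1 point per library, WT as blue circles and KO as red squares, with horizontal lines and bars for the mean and SD of the 4 batch 2 libraries of a group. Cdh13 and Fmnl2 sit lower in batch 1, Aebp1 sits higher there, and the batch 1 libraries of Esx1 (268 and 273) lie inside the batch 2 range.

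Non-overlap of the batches was common. Of the 11608 genes tested in tumor-like cells, 40.0% were higher in all 8 libraries of batch 2 than in both of batch 1, as Cdh13 and Fmnl2 were, and 34.5% were lower in all 8, as Aebp1 was. By gene span, the median log2 ratio of batch 2 to batch 1 was -0.50 over 2418 genes of up to 10 kb, 0.04 over 7143 genes of 10 to 100 kb, 0.47 over 1293 genes of 100 to 250 kb and 0.33 over 749 longer genes, and the share higher in batch 2 was 24.4%, 53.6%, 89.9% and 97.3%. The members stood at 1.12 (Cdh13), 2.08 (Fmnl2), 0.23 (Esx1) and -1.16 (Aebp1) on this log2(CPM + 20) scale. Esx1, a gene of under 10 kb, was thus higher than the median of its span group, and Aebp1, at 10.1 kb, lower than that of the 10 to 100 kb group. The part of gene span in the batch difference was not tested, and instrument, depth and run cannot be told apart between the batches.

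The genotype contrast asked whether the tumor cells of EC-AGO1-KO hosts carried other levels of the members. No member passed, and neither did any other gene: edgeR's quasi-likelihood test on UMIs summed per library, with batch as a covariate, called 0 of 11608 genes at an adjusted p under 0.05 (0.0% called), with 674 genes (5.81%) at an unadjusted p under 0.05, and DESeq2 called 0, with 612 at an unadjusted p under 0.05. With no filter on low counts edgeR called 41 of 26894 genes, 31 of which were among the 11608, and no member. Cdh13 had a log2 fold change of -0.27 ± 0.13 (SE) in KO against WT (edgeR, adjusted p = 0.838, unadjusted p = 0.0475). Esx1 had one of 0.28 ± 0.13 (SE, edgeR adjusted p = 0.838, unadjusted p = 0.0475). Fmnl2 stood at -0.07 ± 0.12 (edgeR adjusted p = 0.943) and Aebp1 at 0.02 ± 0.14 (edgeR adjusted p = 0.985).

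In batch 2, 3 of the 4 KO libraries lay below every WT library for Cdh13 and 2 of 4 lay above every WT library for Esx1, so the groups overlapped for both genes. Groups that do not overlap within batch 2 were found for 3.28% of genes, and no member was among them. Each library came from its own tumor or, for KO 2+3 and KO 5+6, from a pair of tumors pooled, and WT and KO mice were littermates, so the p-values measure the spread between such libraries.

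The tumor-like class held most UMIs of every member. In batch 1, it held 99.2% of Esx1, 98.7% of Cdh13, 96.6% of Aebp1 and 94.8% of Fmnl2 UMIs, against 81.5% of the UMIs of all genes. In batch 2 it held 93.8%, 92.5%, 92.5% and 91.5% in the same order, against 89.4% of all UMIs.

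A single UMI was most particular to tumor-like barcodes for Esx1. In batch 1, 72.5% of 1177 tumor-like barcodes had an Esx1 UMI (95% Wilson interval 69.9% to 74.9%) and 1.33% of 980 barcodes of the other named classes did. For Fmnl2 the shares were 77.3% and 23.2%, for Cdh13 78.9% and 3.67% and for Aebp1 77.5% and 3.47%. T-like cells, which should lack Esx1, had it in 0.885% of 113 barcodes. Median UMIs without Actb were 10389 in tumor-like and 1239 in T-like barcodes of batch 1. Thinned to 500 UMIs per barcode, Esx1 was expected in 12.8% of tumor-like and 0.269% of T-like barcodes, and Cdh13 in 36.6% and 0%. In the 12 endothelial-like barcodes of that depth Cdh13 was expected in 59.2%. Fmnl2 was expected in 24.4% of tumor-like and 20.8% of dendritic-like barcodes, and Aebp1 in 17.5% of tumor-like and 38.6% of fibroblast-like barcodes. These shares are a description and carry no test. Intervals and limits cover counting error only.

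Batch 2 was shallower, with medians of 619 UMIs in tumor-like and 295 in T-like barcodes, and the shares with an Esx1 or Aebp1 UMI were lower in tumor-like barcodes. Esx1 was seen in 20.7% of 54561 tumor-like and 3.30% of 4763 other barcodes, and Aebp1 in 12.3% and 2.41%. Cdh13 was seen in 65.8% and 13.5% and Fmnl2 in 75.3% and 28.4%. Thinned to 200 UMIs per barcode, a depth added to 500, Esx1 was expected in 6.75% of tumor-like barcodes of batch 2. Other shares were 3.65% in B-like, 2.00% in pericyte-like, 1.63% in fibroblast-like and 1.52% in dendritic-like barcodes. Endothelial-like, myeloid-like and T-like barcodes stood at 0.976%, 0.668% and 0.389%. At 500 UMIs Esx1 was expected in 14.3% of the 33855 tumor-like barcodes of that depth. The shares were 13.5% in 155 B-like, 10.3% in 96 dendritic-like, 8.16% in 91 pericyte-like and 7.57% in 107 myeloid-like barcodes. They were 6.89% in 207 fibroblast-like, 6.13% in 56 endothelial-like and 1.146% in 143 T-like barcodes. The B-like share at 500 UMIs was thus near the tumor-like share. Thinned to 200 UMIs, Fmnl2 was expected in 41.7% of tumor-like and in 33.2% of dendritic-like barcodes. Thinned to 500 UMIs, it was expected in 72.2% and 70.7%.

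All 4 members together were seen in 61.3% of the tumor-like and 0.306% of the other named barcodes of batch 1. In batch 2 this fell to 2.32% and 0.231%. Any 1 member was seen in 90.0% of tumor-like and in 33.7% of other barcodes of batch 2. Requiring Esx1 or Aebp1 gave 29.8% and 5.33%.

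Esx1 had few UMIs outside tumor-like cells in batch 1. It had 0 UMIs in fibroblast-like barcodes, which allows up to 20.9 CPM against 271 in tumor-like cells. It also had 0 UMIs in pericyte-like, dendritic-like and B-like barcodes, with looser limits of 286, 71.4 and 47.5, so that a level below that of tumor-like cells was not detectable in the 4 pericyte-like barcodes. Endothelial-like barcodes held 2 UMIs, with an upper 95% exact Poisson limit of 147 CPM, and T-like barcodes 1. Myeloid-like barcodes held 22 UMIs, or 10.9 CPM (exact Poisson 95% interval 6.84 to 16.5), 4.03% of the tumor level, beside 4.62% for Pvt1.

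Pvt1 was higher in the other classes in batch 2. It reached 47.2% of its tumor level in fibroblast-like, 50.9% in pericyte-like, 37.6% in endothelial-like, 12.3% in myeloid-like and 42.1% in dendritic-like barcodes. Esx1 reached 34.7%, 54.1%, 31.1%, 14.0% and 36.6% of its tumor level in the same classes, in the same range as Pvt1. Per library, Esx1 in fibroblast-like barcodes ran from 9.55% to 58.3% of the tumor level and was lower than in tumor-like cells in 8 of 8 libraries, as were 15.6% of genes. In pericyte-like barcodes it ran from 0% to 116% and lay above the tumor level in WT 4 and WT 5, and in the other 6 libraries below it. Over all libraries of batch 2, Esx1 had 35 UMIs in fibroblast-like and 26 in pericyte-like barcodes. Each library's value thus rests on few UMIs.

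Barcodes of the other classes with no Pvt1 UMI were then taken alone, a choice made after the levels had been seen. In batch 2, Esx1 fell to 0 UMIs in 165 pericyte-like barcodes, with an upper 95% exact Poisson limit of 60.4 CPM, and to 17.3% of the tumor level in fibroblast-like (7 UMIs), 6.61% in endothelial-like (1 UMI), 10.1% in myeloid-like (12 UMIs) and 4.25% in T-like barcodes (4 UMIs). The remaining Esx1 counts are small. Pvt1 need not come from tumor RNA alone. In batch 1, 23.9% of 113 T-like barcodes held Pvt1 (43 UMIs, 5.19% of the tumor level), beside 0 Cdh13 UMIs. Whether other cells had Pvt1 of their own was not tested.

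Cdh13 was near its tumor level in endothelial-like cells. In batch 2, the 185 endothelial-like barcodes held 220 Cdh13 UMIs, or 2446 CPM (exact Poisson 95% interval 2133 to 2791), 93.2% of the tumor level, whereas Pvt1 reached 37.6%. Among the 5 libraries with at least 20 such barcodes, Cdh13 stood at 112% of the tumor level in WT 5, 112% in KO 1, 61.8% in KO 2+3, 91.9% in KO 4 and 103% in KO 5+6. It lay above the tumor level in 3 libraries and above the Pvt1 percent in 5 of 5, a state whose share among all genes was not counted. The other 3 members were lower than in tumor-like cells in all 5 libraries, as were 37.7% of genes. In batch 1, 13 endothelial-like barcodes held 111 UMIs, 188% of the tumor level against 25.9% for Pvt1.

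Endothelial-like barcodes without Pvt1 UMIs were then taken alone. In batch 2 the 126 barcodes held 96 Cdh13 UMIs, 77.7% of the tumor level (2040 CPM, exact Poisson 95% interval 1652 to 2491), and the 7 of batch 1 held 61 UMIs, 255% of it. All 8 endothelial markers were present in the class in both batches, Cdh5 among them at 534 CPM in batch 2. Its fibroblast marker list summed to 600 CPM in batch 2, against 49098 in fibroblast-like barcodes, and its tumor marker list to 9639, against 16501 in tumor-like barcodes. A free-RNA share was estimated as the level of other non-tumor classes' markers in the class over that in free RNA, held to at most 1. It was 0.51 in WT 5 and met the limit of 1 in KO 1, KO 2+3, KO 4 and KO 5+6. At the limit those markers were at least as high in the class as in free RNA, so the value is no measured share. In batch 2 the class held the dendritic list at 1312 CPM and the adipocyte list at 812. The part of free RNA in the Cdh13 level of the class was not tested.

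In the other classes Cdh13 was lower, apart from the B-like barcodes. In batch 2 it reached 48.5% of the tumor level in fibroblast-like, 42.0% in pericyte-like, 11.3% in myeloid-like, 29.4% in dendritic-like and 7.93% in T-like barcodes. Without Pvt1 UMIs these became 13.3%, 8.11%, 2.47%, 2.26% and 2.08%. In batch 1 it reached 13.9% in fibroblast-like barcodes and 1.78% in myeloid-like barcodes, and 0 UMIs were found in dendritic-like and T-like barcodes, which allows up to 71.4 and 13.9 CPM. Cdh13 was lower than in tumor-like cells in 10 of 10 libraries for all immune-like classes together, as were 15.5% of genes.

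**Figure D2:**
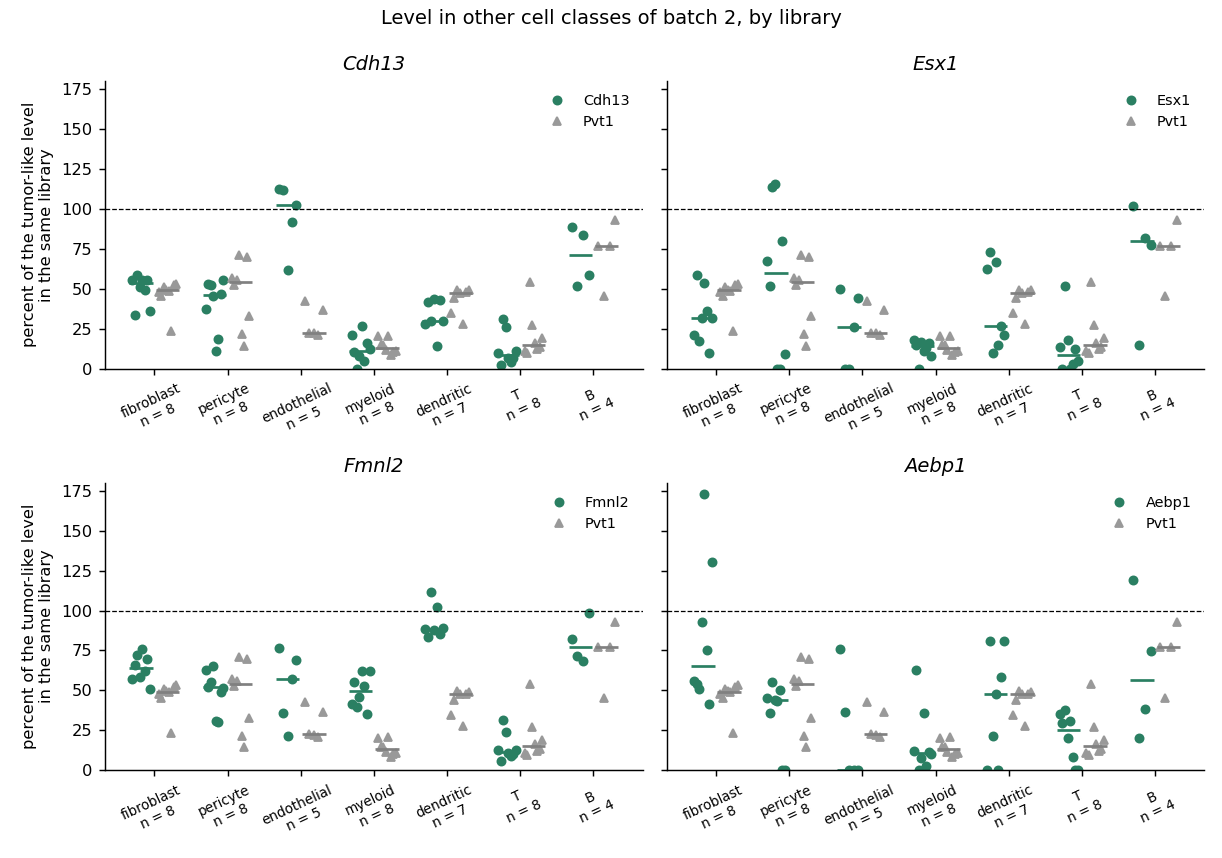
Level of each member (green circles) and of Pvt1 (grey triangles) in 7 other cell classes of batch 2, as a percent of the tumor-like level in the same library. Each point is 1 library with at least 20 barcodes of the class, horizontal lines are medians, and the dashed line is the tumor-like level. Cdh13 in endothelial-like and Fmnl2 in dendritic-like barcodes lie near the dashed line and above all Pvt1 points of the class, and Aebp1 in fibroblast-like barcodes spans 41.5% to 173%. That Aebp1 range rests on 46 UMIs over all libraries.

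Fmnl2 was near its tumor level in dendritic-like cells. In dendritic-like barcodes it reached 2679 CPM in batch 2, 91.3% of the tumor level, with Pvt1 at 42.1%. Over the 7 libraries with at least 20 such barcodes it ran from 83.3% to 112% of the tumor level with a median of 88.6%. It lay above the tumor level in 2 (WT 5 and KO 2+3) and above the Pvt1 percent in 7 of 7. The share of all genes above the Pvt1 percent in every library was not counted. In batch 1, 25 dendritic-like barcodes held 23 UMIs, 80.6% of the tumor level, with 1 Pvt1 UMI. Leading genes of its clusters included the MHC class II genes H2-Aa and H2-Eb1 and, in the smaller cluster, the dendritic marker Ccr7.

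Myeloid-like cells held Fmnl2 above their Pvt1 percent. They stood at 178 CPM in batch 1 and 1430 in batch 2, 26.2% and 48.7% of the tumor level, against 4.62% and 12.3% for Pvt1. Fmnl2 lay above the Pvt1 percent in 10 of 10 libraries, and how many of all genes did so was not counted. It lay below the tumor level in 10 of 10, and 19.5% of all genes were likewise higher in tumor-like than in myeloid-like cells in every library. T-like cells were at 1.36% and 11.2% of the tumor level, with Pvt1 at 5.19% and 15.7%.

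Fmnl2 was also measured in stromal classes of batch 2, at 62.9% of the tumor level in fibroblast-like, 58.7% in endothelial-like and 52.1% in pericyte-like barcodes. Without Pvt1 UMIs these values were lower, at 44.4% (164 UMIs), 34.8% (48 UMIs) and 15.1%. In the same comparison dendritic-like barcodes went from 91.3% to 88.5% (307 UMIs) and myeloid-like barcodes from 48.7% to 43.7% (475 UMIs). T-like and B-like barcodes without Pvt1 UMIs were at 4.31% and 8.76%.

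Aebp1 was shared with fibroblast-like cells. In batch 1, 20 fibroblast-like barcodes held 140 Aebp1 UMIs, or 976 CPM (exact Poisson 95% interval 821 to 1151), 230% of the tumor level, with Pvt1 at 1.81%. All 20 had at least 1 UMI. The 4 pericyte-like barcodes of batch 1 held 3 UMIs and the 13 endothelial-like barcodes 9. Myeloid-like cells of batch 1 were at 1.99% of the tumor level, and T-like cells had 0 UMIs, which allows up to 13.9 CPM.

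In batch 2 fibroblast-like barcodes stood at 82.2% of the tumor level with 46 UMIs (146 CPM, exact Poisson 95% interval 107 to 195). The libraries were at 55.7%, 54.1%, 50.7% and 92.7% in WT 1, WT 3, WT 4 and WT 5 and at 173%, 75.2%, 41.5% and 131% in KO 1, KO 2+3, KO 4 and KO 5+6. KO 1 and KO 5+6 lay above the tumor level and the other 6 below. The 46 UMIs were spread over all these libraries, so each library's value rests on few UMIs. Without Pvt1 UMIs, 18 UMIs remained, at 80.2% of the tumor level (143 CPM, 84.7 to 226). Pericyte-like and myeloid-like barcodes were at 33.8% and 16.0% with Pvt1 at 50.9% and 12.3%, and at 9.19% and 6.07% without Pvt1 UMIs, on 1 and 4 UMIs.

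**Figure D3:**
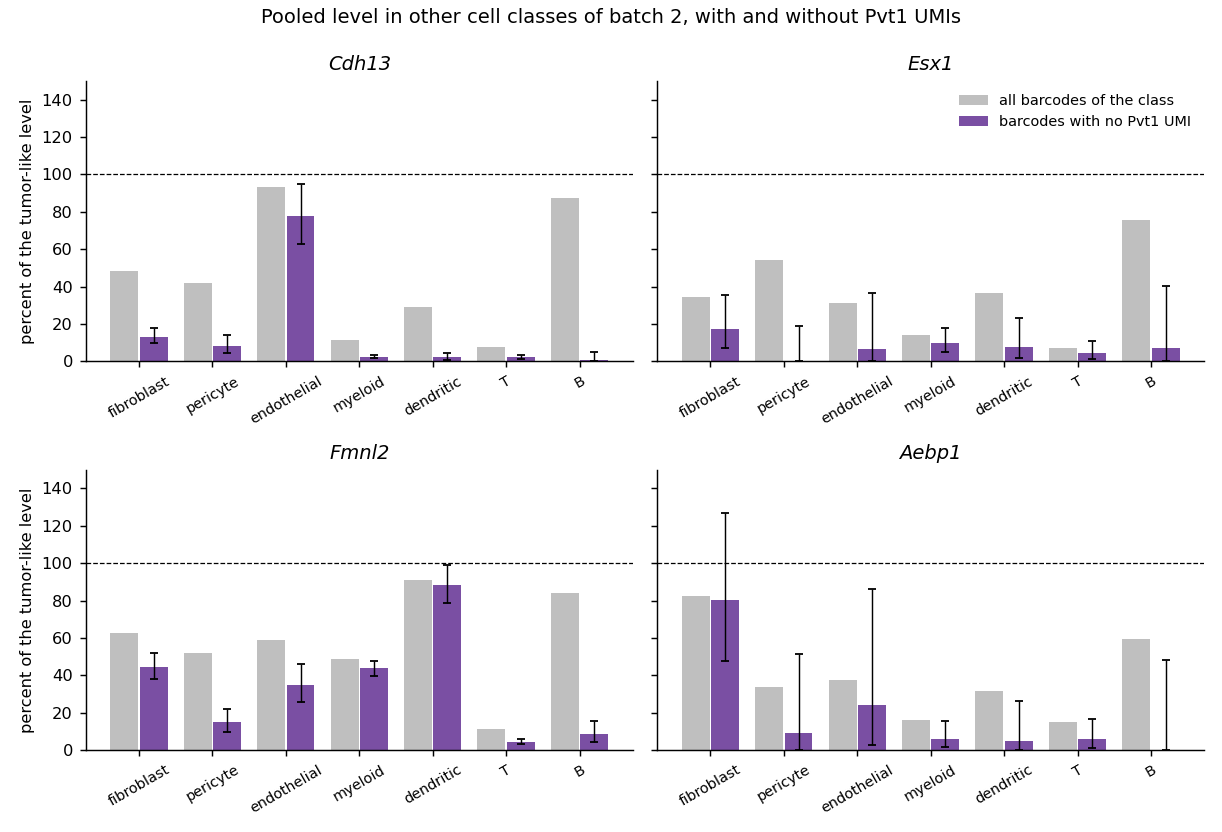
Pooled level of each member in 7 other cell classes of batch 2 as a percent of the tumor-like level, over all barcodes of the class (grey) and over those with no Pvt1 UMI (purple, with exact Poisson 95% intervals). The purple bars stay high for Cdh13 in endothelial-like (77.7%), Fmnl2 in dendritic-like (88.5%) and Aebp1 in fibroblast-like barcodes (80.2%), and are at most 17.3% for Esx1.

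B-like barcodes need a separate statement. The 326 of batch 2 carried Pvt1 at 76.2% of the tumor level and the members at 59.5% to 87.5%, and without Pvt1 UMIs the members stood at 0% to 8.76%. In batch 1, 67 B-like barcodes held 1 Cdh13 UMI, 1 Fmnl2 UMI and no Esx1 or Aebp1 UMI. The unnamed barcodes of batch 2 carried the members at 73.5% to 96.2% of the tumor level, with Pvt1 at 93.6%. The part of tumor RNA in these values was not tested, and in such data free RNA and barcodes with more than 1 cell cannot be told apart.

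Averaged over libraries with at least 20 barcodes, the log2 ratio of tumor-like to other cells, on log2(CPM + 20), gave one order against endothelium and another against fibroblasts. Against endothelial-like cells it was 0.09 ± 0.35 (SD, n = 5) for Cdh13, 1.07 ± 0.74 for Fmnl2, 2.30 ± 1.44 for Aebp1 and 2.46 ± 1.69 for Esx1. Against fibroblast-like cells it was 0.35 ± 0.63 (SD, n = 8) for Aebp1, 0.65 ± 0.19 for Fmnl2, 1.03 ± 0.30 for Cdh13 and 1.58 ± 0.66 for Esx1. The neighbours in each order differed by less than the larger of their SDs, except Cdh13 and Fmnl2, which differed by more in both orders. The endothelial-like barcodes of batch 2 held 6 Aebp1 and 9 Esx1 UMIs in all, and the median library had Aebp1 at 0 CPM. Where a library had 0 UMIs, the 20 added to each level set the ratio. With barcodes classed by marker UMIs and no clusters, the ratio to fibroblast-like cells turned to -0.32 for Cdh13 and -0.34 for Aebp1. That rule named another class from a few marker UMIs, and a tumor-like barcode only where no other class's marker was seen. Tumor-like clusters of batch 2 held the fibroblast list at 388 CPM and the dendritic list at 880. Their barcodes could thus enter the other classes, and the part of this in the ratios was not tested.

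Against pericyte-like cells the log2 ratios were 1.05 ± 0.42 (SD, n = 8) for Fmnl2, 1.47 ± 0.83 for Cdh13, 1.51 ± 0.99 for Aebp1 and 1.60 ± 1.92 for Esx1. Against all immune-like cells they were 1.18 ± 0.43 (SD, n = 10) for Fmnl2, 2.00 ± 0.97 for Esx1, 2.07 ± 1.23 for Aebp1 and 2.67 ± 1.43 for Cdh13. Fmnl2 had the lowest value of the 4 in both. The pericyte-like barcodes of batch 2 held 26 Esx1 and 9 Aebp1 UMIs in all. Classed by the same rule on marker UMIs, under which barcodes of tumor-like clusters could enter other classes, the ratios to immune-like cells fell to between 0.12 (Fmnl2) and 0.27 (Esx1). Within the batches, the immune-like level of Cdh13 was 1.57% of the tumor level in batch 1 and 25.6% in batch 2, that of Esx1 3.64% and 25.3%, that of Aebp1 1.72% and 25.3%, and that of Fmnl2 24.3% and 48.9%.

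Tumor-like cells of batch 2 fell into 10 clusters, numbered by size, with cluster 10 being the cluster of batch 1. Esx1 was highest in cluster 3 (460 CPM), whose leading genes include the ribosomal protein genes Rpl29 and Rpl37, and in cluster 8 (401), led by the stress genes Hmox1, Mt1 and Mt2. It was low in cluster 9 (209), led by Flrt2 and Gpnmb. Cdh13 was highest in cluster 9 (3754) and cluster 2 (3363) and low in cluster 1 (1817), which was led by Insig1, a regulator of sterol synthesis. Fmnl2 peaked in cluster 7 (3644), led by the interferon-response genes Usp18 and Rsad2.

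Aebp1 stayed between 162 and 195 CPM in the clusters other than cluster 11. Cluster 11, with 316 barcodes and led by Gm10800 and similar genes, was the lowest of the batch 2 clusters for all 4 members. It stood at 1177 (Cdh13), 116 (Esx1), 1249 (Fmnl2) and 26.9 (Aebp1). It was also the lowest of them for Pvt1 (4673), Vim (833), Myc (170) and Trp53 (31.3), so this is no trait of the members. Clusters are described and not tested, as all genes but the members, Ago1, Actb and the mitochondrial genes could enter the clustering.

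Across these 10 clusters, Esx1 rose with the ribosomal share of UMIs (Spearman rho 0.87, Pearson r 0.92) and not with Cdh13 (rho -0.08, r 0.12). Cdh13 went with Malat1, a nuclear noncoding RNA (rho 0.94, r 0.88), and with Pvt1 (rho 0.95, r 0.93). Among the other members, Aebp1 went with Fmnl2 (rho 0.68, r 0.87) and Cdh13 (rho 0.64, r 0.75), and Cdh13 with Fmnl2 (rho 0.52, r 0.76). The clusters share their libraries and the totals behind each level, so these correlations are a description over 10 points.

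**Figure D4:**
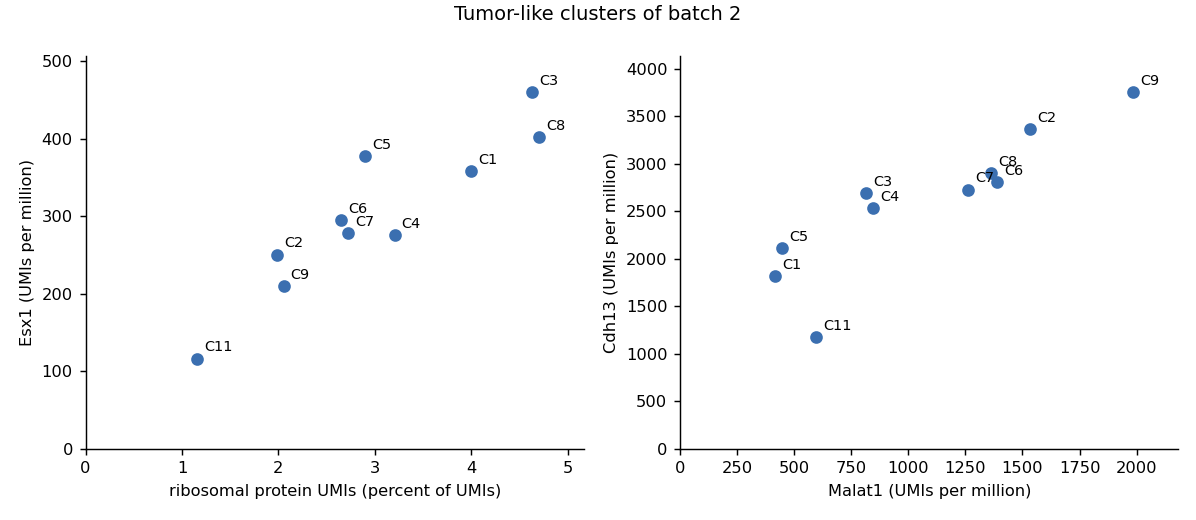
Level of Esx1 against the ribosomal protein share of UMIs (left) and of Cdh13 against Malat1 (right) in the 10 tumor-like clusters of batch 2, each a point pooled over libraries, on linear axes from 0. Esx1 runs from 116 in cluster 11 to 460 in cluster 3 with the ribosomal share, and Cdh13 from 1177 to 3754 with Malat1.

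Free RNA was read from barcodes with 1 to 50 UMIs, which held 843290 to 1733026 UMIs per library, Actb included. In batch 1 every member was lower there than in tumor-like cells, at 0.41 and 0.35 of the tumor level for Esx1 in WT and KO and at 0.18 to 0.26 for the other 3. Among the members, Esx1 stood apart in batch 2. Its ratio to the tumor level was 2.61, 0.81, 2.38 and 1.48 in WT 1, WT 3, WT 4 and WT 5 and 0.75, 0.77, 0.81 and 0.64 in KO 1, KO 2+3, KO 4 and KO 5+6.

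WT 1, WT 4 and WT 5 thus had more Esx1 per UMI in free RNA than in tumor-like cells, a state that 59.7% of genes showed in at least 3 of these 8 libraries. The ratio for Cdh13 ran from 0.27 to 0.42, for Fmnl2 from 0.17 to 0.39, for Aebp1 from 0.28 to 0.71 and for Pvt1 from 0.20 to 0.41 in batch 2. WT 5 had the highest ratio of batch 2 for Cdh13, Fmnl2, Aebp1 and Pvt1 but not for Esx1. Counted per 100 Cdh13 UMIs, Esx1 had 7.56 to 18.9 UMIs in tumor-like cells and 31.2 to 74.5 in free RNA of batch 2.

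**Figure D5:**
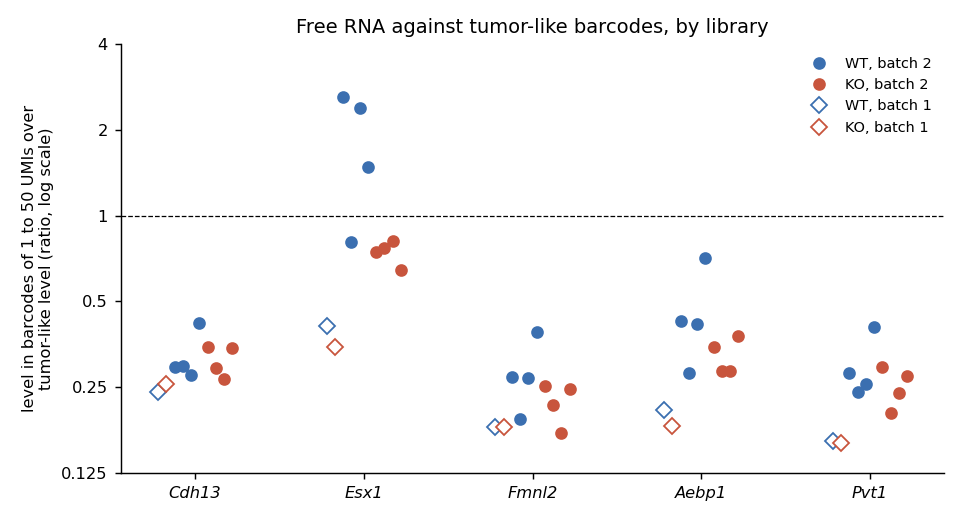
Level in barcodes of 1 to 50 UMIs divided by the level in tumor-like barcodes of the same library (log axis), for each member and Pvt1, with WT in blue, KO in red, batch 2 as filled circles and batch 1 as open diamonds. Esx1 in WT 1, WT 4 and WT 5 lies above 1, at 2.61, 2.38 and 1.48, and all other points lie below 1.

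Each member was also set beside its relatives, from lists chosen with earlier results known. Among the cadherin genes listed, Cdh13 was the only one above 4 CPM in tumor-like cells, at 2309 ± 701 (SD, n = 10). The next was Cdh8 (3.80), and Cdh1, the epithelial cadherin, was at 1.29 against 669 in epithelial-like cells of batch 2. In other classes the cadherins had their own places: Cdh5 in endothelial-like (534), Cdh11 in fibroblast-like (331) and Cdh2 in pericyte-like cells (207). The adiponectin receptors Adipor1 (105 ± 7.68) and Adipor2 (101 ± 14.0) were present in tumor-like cells, and Adipoq, which encodes adiponectin, was at 0.196.

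Fmnl2 was the highest of the formins at 2486 ± 987 CPM (SD, n = 10). Diaph2, another actin-elongating formin, was at 640 ± 200, Diaph3 at 317 ± 109, Daam1 at 147 and Fmnl3 at 82.8, while Fmnl1, known from blood cells, was at 0.563 in tumor-like cells and 137 in T-like cells of batch 2. Pfn1, a profilin that feeds actin to formins, was at 390 ± 80.7. These counts are not corrected for gene length, so the order of genes within a list is an order of UMIs.

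Esx1 (312 ± 63.1, n = 10) was joined by 1 other X-linked homeobox gene at a comparable level, Rhox5, at 139 ± 81.3 CPM. Rhox5, known from testis and from many mouse tumor lines, stood at 270 in batch 1 and 105 in batch 2. Rhox1 was at 9.52, and the other 10 Rhox genes were at 0 to 0.115. Elf3, an epithelial transcription factor gene once called ESX and unrelated to Esx1, had 28 UMIs in all kept barcodes, 0.415 CPM in tumor-like and 53.1 in epithelial-like cells of batch 2. In other cells of batch 2 Rhox5 stood at 54.1 CPM in fibroblast-like, 73.5 in pericyte-like and 4.08 in myeloid-like barcodes.

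Aebp1 (229 ± 107, n = 10) and Cpe, a carboxypeptidase of secretory granules (153 ± 42.9), led the carboxypeptidase-like list in tumor-like cells. The collagen-assembly genes of the same list were fibroblast genes: Col1a1 was at 121 in tumor-like and 42995 in fibroblast-like cells of batch 2, Fn1 at 1.09 and 764 and Lox at 0.185 and 153. Col5a1 was at 66.0 in tumor-like and 293 in fibroblast-like cells.

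The other genes that the study used to mark tumor or mesenchymal cells were also present. Pvt1 was at 9537 ± 3149, Vim, an intermediate filament gene, at 2949 ± 661, Myc at 410 ± 119 and Trp53 at 101 ± 14.2 CPM in tumor-like cells (SD, n = 10). In the genotype contrast 0 genes of these lists passed edgeR's test in either direction, of 5 tested cadherin-list, 16 formin-list, 3 homeobox-list, 7 carboxypeptidase-list and 4 other marker genes, and 0.0% of all genes passed. Rhox5 had a log2 fold change of -0.18 ± 0.27 (SE, edgeR adjusted p = 0.928) in KO against WT, and Cpe one of -0.38 ± 0.19 (edgeR adjusted p = 0.838).

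Genes with the most similar pattern were sought over 53 sums of a library and class, among 8831 genes, after removing each gene's mean within a library. For Cdh13 these were Map1b (Pearson r 0.92), Pvt1 (0.92) and Sox9 (0.91). For Esx1 they were Frmd4a (0.88), Hmga2 (0.87) and Cdh13 (0.86), and for Fmnl2 Maml3 (0.89), Frmd4a (0.89) and Eps8 (0.88). For Aebp1 they were Pvt1 (0.82), Cdh13 (0.81) and Pcdh15 (0.81). The sums share libraries, so these values are a description.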

How the data were processed

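Single-cell 3' RNA libraries of E0771 tumors were used as deposited. The authors deposited raw UMI counts per gene and barcode, empty droplets included and not normalized, made with Cell Ranger 7.1.0 on mm10 according to the submitters' processing notes. Whether intronic reads were counted is not given in the sources used here. The members and gene lists were chosen with earlier results of these data known. A barcode was kept if it held 200 to 7000 genes, with mitochondrial UMIs at 10% or less. Clustering left out the members, Ago1, Actb and the mitochondrial genes and used 2000 variable genes, 30 components, 15 neighbours and Leiden clusters (resolution 1, leidenalg 0.10.2 in scanpy 1.11.5). Barcodes outside tumor-like clusters were clustered a second time. A class name required 3 or more of its markers, each detected in at least 2% of barcodes and raised by a factor of 2. A cluster whose summed markers fell under 25% of the strongest cluster of its class in the same batch stayed unnamed. No doublet caller was run, so barcodes with more than 1 cell remain.

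Levels are in CPM with Actb left out of the total, and means over libraries used those with at least 20 barcodes of the class. Ratios were taken on log2(CPM + 20). Limits for a count of 0 use 3 counts, and 95% intervals are exact Poisson or Wilson. WT and KO were compared with edgeR 4.0.16 (TMM, filterByExpr, quasi-likelihood test, batch as covariate, Benjamini-Hochberg adjustment over all genes tested), with DESeq2 1.42.0 as an alternative. On counts simulated for this comparison over 11608 genes, of which 200 were changed by 1 on the log2 scale, the fit recovered 81.5%. Depth per library is given with the results. Gene coordinates are from GENCODE M21. Named genes were the members, the 3 genes most alike to each by Pearson correlation (among genes with at least 500 UMIs, over library and class sums of at least 20000 UMIs), the study's own markers, Elf3, Rhox5 and, in each list, those of the 4 highest genes in tumor-like cells that could be reported. A gene of the formin list among its 4 highest is not reported here. Leading genes of clusters and the genes Cdh1, Cdh2, Cdh5, Cdh11, Adipoq, Diaph3, Daam1, Fmnl1, Fmnl3, Fn1 and Lox were named after their values were seen. Alternatives covered class naming, barcode limits, free-RNA subtraction, the libraries used and the settings of the test.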

Additional observations from a re-analysis of the deposited data

Results flagged for a closer look

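In 60 groups of 4 or 5 libraries of 1 genotype, 6 held a library that stood far from the others by Dixon's test, where chance gives about 1 in 20. Groups of batch 2 lie within those of both batches, so the 60 are not independent. Of these, 4 were libraries of batch 1 set beside batch 2. Fmnl2 in tumor-like cells was 655 CPM in the WT library of batch 1, against 2726 to 3175 in the other WT libraries. Aebp1 in tumor-like cells was 414 CPM there, against 153 to 199. In free RNA, the KO library of batch 1 held Esx1 at 94.4 CPM, while the rest of KO ran from 246 to 295, and Fmnl2 at 128 CPM, against 572 to 689. The other two lay within batch 2. Free RNA of KO 2+3 held Cdh13 at 590 CPM, while KO 1, KO 4 and KO 5+6 ran from 763 to 770. The log2 ratio of tumor-like to fibroblast-like cells for Aebp1 was 0.10 in WT 5, against 0.74 to 0.83 in the other WT libraries of batch 2.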

How the results depend on the processing

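Of the log2 ratios of a member between tumor-like and other cells under other settings, 109 moved by less than 1 SD between libraries, 27 moved by more and 4 changed sign. Classed by marker UMIs without clusters, the ratios to fibroblasts became -0.32 for Cdh13 and -0.34 for Aebp1, both reversed, 0.40 for Esx1 and 0.19 for Fmnl2. Those to immune cells became 0.18 for Cdh13, 0.27 for Esx1, 0.12 for Fmnl2 and 0.17 for Aebp1. Under that rule barcodes of tumor-like clusters could enter the other classes, so these classes are not those of the clusters. With free RNA subtracted, the ratios against fibroblasts were 1.49 for Cdh13, 2.29 for Esx1 and 0.84 for Fmnl2. Against immune cells they were 4.69 for Cdh13 and 3.05 for Esx1. Against endothelium they were -0.065 for Cdh13, reversed, and 0.73 for Aebp1. There 1 library was left, since the estimated free-RNA share met its limit of 1 in the other 4. It met the limit in all 8 libraries for pericytes, which held the fibroblast list at 11396 CPM in batch 2 and gave no value. An estimate at the limit is no measured share. In barcodes without Pvt1 UMIs, an alternative chosen after seeing the data, they were 2.87 for Cdh13, 2.81 for Esx1 and 1.19 for Fmnl2 against fibroblasts, 4.17 for Cdh13, 4.20 for Esx1, 2.78 for Fmnl2 and 2.76 for Aebp1 against pericytes, 4.29 for Esx1 and 1.99 for Fmnl2 against endothelium, and 5.15 for Cdh13, 3.15 for Esx1 and 1.65 for Fmnl2 against immune cells. With at least 500 genes per barcode they were 0.88 for Fmnl2 against fibroblasts and 0.96 for Esx1 and 0.51 for Fmnl2 against immune cells, with no value for pericytes or endothelium. Without the pooled KO libraries, Cdh13 against endothelium was -0.068, reversed. Leaving out 1 library at a time gave -0.060 to 0.15 for Cdh13 against endothelium, the lowest and only negative value without KO 2+3. The free-RNA setting corrected tumor-like cells as well, at estimated shares of 0.44 (KO 4) to 0.67 (KO batch 1). In WT 1 and WT 4 these shares were 0.47 and 0.65, and free RNA held Esx1 at 2.61 and 2.38 times the tumor level. The subtraction thus took all Esx1 UMIs from the tumor-like cells of WT 1 and WT 4. The causes were not tested.

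In the genotype contrast, 41 genes passed with no filter on low counts (31 of them also tested with the filter, 69 to 11443 UMIs over the 41, median 800) and 0 under each other setting. Aebp1, at 0.02, became -0.0086 with no filter, -0.11 without the pooled KO libraries and -0.061 with all barcodes kept, and ran from -0.12 to 0.11 when 1 library was left out, negative without KO 2+3 or WT 5. The other fold changes kept their direction. Only 2 replicate numbers were shared by WT and KO. Same-numbered libraries did not deviate together (r -0.21 and -0.28 over 11586 genes). Differently numbered ones had r 0.31 (WT 1 and KO 4) and 0.13 (WT 4 and KO 1). So few pairs cannot exclude a pairing, and the numbers were treated as names in the main fit. With the replicate block, 0 genes passed and the log2 fold changes were -0.28 for Cdh13, 0.28 for Esx1, -0.07 for Fmnl2 and 0.01 for Aebp1. Batch 1 had 20 fibroblast-like, 4 pericyte-like, 13 endothelial-like and 25 dendritic-like barcodes, which limits the precision of its values.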
